A study of Homo sapiens with 6 samples.

Results

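The genes described here encode the ligands and receptors of the tumor necrosis factor (TNF) superfamily, as measured by RNA-seq in BHT101 cells with and without an SK4 plasmid. They were taken by name: every protein-coding row whose symbol begins with TNFSF or TNFRSF, together with TNF, FAS, FASLG, LTA, LTB and LTBR. This gave 37 of the 32896 genes in the table, made up of 15 ligand genes, 21 receptor genes and 1 readthrough gene, TNFSF12-TNFSF13. BHT101 is an established human line from an anaplastic thyroid carcinoma. The 6 libraries came from cells harvested 48 h after lipid transfection with a control plasmid (n = 3) or with a plasmid carrying SK4, the calcium-activated potassium channel encoded by KCNN4 (n = 3). No other allele or agent is named in the labels, and both groups went through the same transfection. For control replicate 3 the treatment label reads BHT102 but the cell line label BHT101. Whether the replicates were separate cultures is not stated, so the p-values reflect the spread among these 6 samples alone and that spread may be technical. Values are FPKM, that is, fragments normalised for gene length and for the mapped total of each library, and can be compared between genes.

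Ligands of the TNF superfamily are mostly membrane proteins that act as trimers, some after being shed by a protease, and they cluster their receptors on the target cell. The receptors fall into those with an intracellular death domain, which can recruit FADD or TRADD and lead to caspase activation, those that bind TRAF adaptors and feed NF-kB and MAP kinase signalling, and decoys that bind a ligand without passing on a full signal. Epithelial and carcinoma cells usually carry several of the receptors, whereas many of the ligands are known best from lymphocytes and myeloid cells.

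Estimated depth ran from 29700000 fragments in control replicate 3, the shallowest library, to 38500000. KCNN4 was at 8.36 ± 0.138 FPKM with the control plasmid and 167 ± 18.3 FPKM with the SK4 plasmid (SD, n = 3 each; limma adjusted p = 8.83e-07; exact two-sided permutation p = 0.1, the smallest that 3 against 3 allows). It was the only one of 11139 tested genes called at an adjusted p below 0.05. Keratin and other carcinoma markers were present in all libraries (8 of 8 at 1 FPKM or more, KRT19 at 217 to 259 FPKM). Of 8 thyroid follicular markers only HHEX reached 1 FPKM (8.48 FPKM at most), and the defining genes TG and TSHR were at 0.01 FPKM at most. Of 13 leukocyte markers 4 reached 1 FPKM (CD3D, CD14, ITGAM and CD68). The summed level of that list was 11.8 to 13.3 FPKM with the control plasmid and 10.8 to 11.4 FPKM with the SK4 plasmid, and of its members CD3D was at 4.89, 4.76 and 5.65 FPKM with the control plasmid and 3.31, 3.99 and 4.30 FPKM with the SK4 plasmid (limma unadjusted p = 0.010, adjusted p = 0.99997, not called). Neither the summed level nor CD3D, which is part of that sum, overlapped between the groups. CD14, ITGAM and CD68 each had overlapping groups. Of all tested genes 1.81% had SK4 values entirely below the control values. The part of the leukocyte-type genes in the members' values was not tested. The defining genes PTPRC and CD3E were at 0.04 FPKM at most. Endothelial markers summed to at most 0.46 FPKM. Fibroblast markers summed to 24.5 to 34.3 FPKM, most of it LUM, with PDGFRA at 1.66 to 2.39 FPKM and COL1A1 at 0.08 FPKM at most. In such bulk libraries fewer cells that express a gene and less RNA per cell cannot be told apart.

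Promoter sequence was looked at as a feature that the choice of members did not use. A RefSeq promoter entry (GRCh38.p14) was found for 26 of the 37 members, 12 of them tested for expression. In the 250 bases before the start site, searched on both strands, a TATAAA element was present in 4 of the 26 members and in 11.1% of all 27305 promoters of that length. The 4 were TNF, TNFSF9, TNFSF10 and TNFRSF18, and the first 3 are ligand genes that were tested for expression. A GC box, GGGCGG, was present in 15 of the 26 and in 42.3% of all promoters. The NF-kB consensus motif was found in LTB, TNFRSF9, TNFRSF14 and TNFSF14 (9.57% of all promoters), and the AP-1 element TGANTCA in FAS, TNFRSF9, TNFSF14 and TNFSF15 (6.6%). Shown are the 120 bases before the RefSeq start of the 3 ligand genes with a TATAAA element and, for contrast, of LTBR, the highest expressed receptor with an entry. The RefSeq start of LTBR lies inside the gene as GENCODE 29 draws it, which begins at 6375045, so its window is not the one before the first annotated base, and the windows of TNFSF9 and TNFSF10 reach partly into the gene in that annotation. Capitals mark TATAAA and the GC box on either strand, which do not overlap in these 4 windows, and each run reads 5′ to 3′ on the gene's strand.
TNFSF10 (chr3:172523431-172523550, minus strand): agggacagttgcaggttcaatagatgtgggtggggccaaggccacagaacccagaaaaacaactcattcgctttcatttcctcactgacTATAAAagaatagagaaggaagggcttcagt
TNFSF9 (chr19:6530906-6531025, plus strand): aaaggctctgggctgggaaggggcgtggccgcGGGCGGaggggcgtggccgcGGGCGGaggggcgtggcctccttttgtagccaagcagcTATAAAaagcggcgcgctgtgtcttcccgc
TNF (chr6:31575445-31575564, plus strand): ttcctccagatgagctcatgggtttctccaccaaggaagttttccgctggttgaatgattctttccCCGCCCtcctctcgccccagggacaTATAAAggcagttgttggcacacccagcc
LTBR (chr12:6384042-6384161, plus strand): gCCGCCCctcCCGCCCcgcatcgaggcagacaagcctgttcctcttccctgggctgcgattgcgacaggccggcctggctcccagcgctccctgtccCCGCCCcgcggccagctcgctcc
The element begins 31, 30 and 29 bases before the start in TNFSF10, TNFSF9 and TNF. The LTBR window holds 3 GC boxes and no TATAAA, and 74.8% of its 250 bases are G or C, against 49.6% for TNFSF10. These are matches of letters and say nothing of whether a factor binds there.

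Receptors made up most of the family's transcripts. The 21 receptor genes summed to 418 ± 3.57 FPKM with the control plasmid and 424 ± 10.6 FPKM with the SK4 plasmid, and the 15 ligand genes to 46.1 ± 3.08 and 48.2 ± 2.00 FPKM (SD, n = 3 each). Of the receptors 13 were at 1 FPKM or more in at least 3 libraries and could be tested, and of the ligands 5. With the readthrough gene 19 members were tested and 18 were not. The mean level of members ran from 0.0033 to 113 FPKM, and 12 members reached a mean of 5 FPKM.

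**Figure D1:**
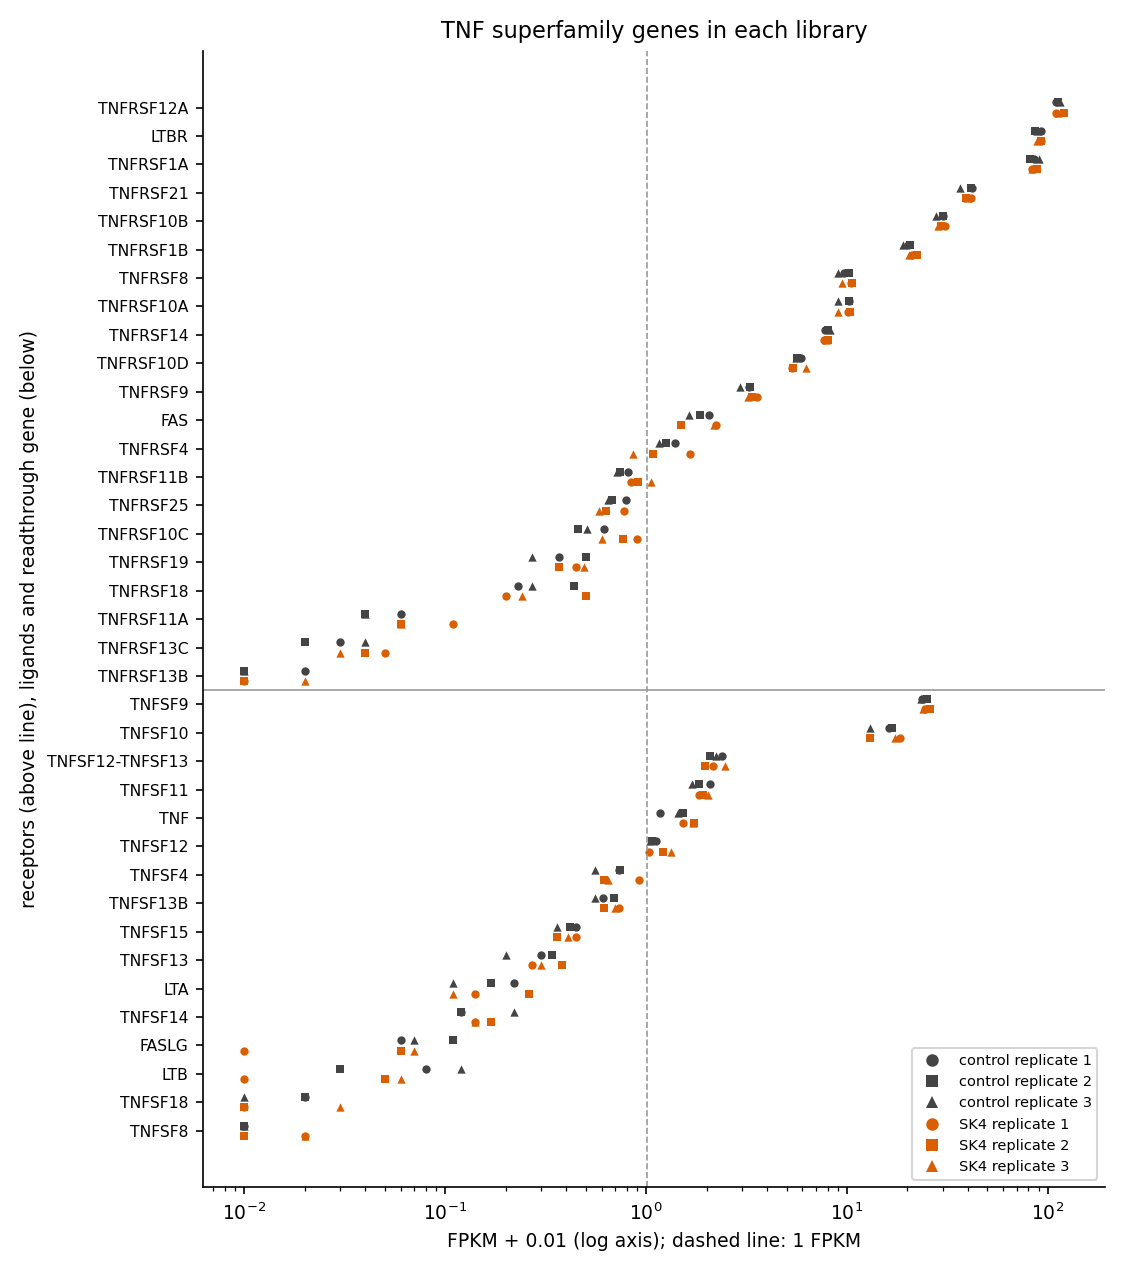
Level of each of the 37 members in each of the 6 libraries, as FPKM + 0.01 on a log axis, with receptors above the grey line and ligands and the readthrough gene below it (grey marks: control, orange marks: SK4, shape: replicate). The 3 highest receptors lie near 100 FPKM, and 18 members reach the dashed line at 1 FPKM in fewer than 3 libraries.

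The highest member was TNFRSF12A, which encodes Fn14, the receptor for TWEAK. It was at 109.54, 112.33 and 114.41 FPKM in control replicates 1 to 3 and at 110.15, 119.96 and 112.03 FPKM in SK4 replicates 1 to 3. The groups overlapped, and 98.1% of protein-coding genes had a lower mean. LTBR, the receptor for lymphotoxin heterotrimers and LIGHT, followed at 92.36, 86.57 and 88.11 FPKM with the control plasmid and 91.93, 92.26 and 88.52 FPKM with the SK4 plasmid. TNFRSF1A, the main TNF receptor with a death domain, was at 85.44, 81.78 and 90.55 FPKM with the control plasmid and 83.73, 88.71 and 83.62 FPKM with the SK4 plasmid. Every TNFRSF12A value lay above every LTBR and TNFRSF1A value, while the ranges of LTBR and TNFRSF1A overlapped. LTBR and TNFRSF1A are next to each other among the members on chromosome 12, 32930 bp apart (LTBR at 6375045 to 6391571, TNFRSF1A at 6328757 to 6342114, GRCh38, GENCODE 29).

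The second TNF receptor, TNFRSF1B, has no death domain and binds TRAF2. It was at 20.19, 20.51 and 19.04 FPKM with the control plasmid and 21.01, 22.23 and 20.35 FPKM with the SK4 plasmid. All SK4 values but replicate 3 were above all control values, and the fitted fold was 1.06 (95% interval 0.979 to 1.15; limma unadjusted p = 0.125, adjusted p = 0.99997). The nearest member, 22795 bp away on chromosome 1, is TNFRSF8, which encodes CD30, a receptor used as a marker of some lymphomas. TNFRSF8 was at 9.64, 10.28 and 9.01 FPKM with the control plasmid and 10.44, 10.57 and 9.46 FPKM with the SK4 plasmid, with overlapping groups. TNFRSF14, the HVEM receptor that binds LIGHT and BTLA, was among the most even members, at 7.75, 8.05 and 8.24 FPKM with the control plasmid and 7.68, 8.06 and 7.83 FPKM with the SK4 plasmid. A noncoding gene antisense to it, TNFRSF14-AS1, was at 0.53 to 0.65 FPKM. Whether strand was used in counting is not given in the sources used here, so reads of the pair may be mixed.

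TNFRSF9, the costimulatory receptor 4-1BB, was at 3.24, 3.28 and 2.94 FPKM with the control plasmid and 3.57, 3.37 and 3.21 FPKM with the SK4 plasmid. The fold was 1.06 (95% interval 0.944 to 1.198; limma adjusted p = 0.99997), with overlapping groups. TNFRSF4, the costimulatory receptor OX40, was at 1.39, 1.25 and 1.15 FPKM with the control plasmid and 1.64, 1.07 and 0.85 FPKM with the SK4 plasmid. Its SK4 values lay on both sides of all control values, the widest relative spread of the tested members (within-group coefficient of variation 24.5%, against 11.5% from counting alone). The remaining TRAF-binding receptors were low: TNFRSF19 and TNFRSF18 had means of 0.398 and 0.303 FPKM. RANK (TNFRSF11A) and TNFRSF13B and TNFRSF13C, superfamily receptors found on B cells, were at 0.10 FPKM or less in every library.

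Among the other receptors with a death domain, TNFRSF21 (DR6) was the highest, at 41.96, 41.50 and 36.54 FPKM with the control plasmid and 41.62, 39.30 and 39.45 FPKM with the SK4 plasmid. Control replicate 3 was the lowest of the 6. FAS, the receptor for Fas ligand, was at 2.04, 1.84 and 1.63 FPKM with the control plasmid and 2.21, 1.48 and 2.17 FPKM with the SK4 plasmid, so that SK4 replicate 2 was below all controls and the other SK4 libraries above them. TNFRSF25 (DR3) was below 1 FPKM throughout (0.57 to 0.78). Its ligand gene TNFSF15 was at 0.44, 0.41 and 0.35 FPKM with the control plasmid and 0.44, 0.35 and 0.40 FPKM with the SK4 plasmid. Taking the 6 death domain receptors as a sum, the level was 168 ± 2.45 FPKM with the control plasmid and 167 ± 3.67 FPKM with the SK4 plasmid.

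The TRAIL system had a ligand and both kinds of receptor present. TNFRSF10B (DR5), the more abundant death receptor for TRAIL, was at 30.05, 30.14 and 27.85 FPKM with the control plasmid and 30.57, 29.23 and 28.21 FPKM with the SK4 plasmid. Its fold change was the smallest of the tested members (fold 0.99978, 95% interval 0.923 to 1.08, limma adjusted p = 0.99997). TNFRSF10A (DR4) was at 10.20, 10.26 and 9.04 FPKM with the control plasmid and 10.08, 10.34 and 8.99 FPKM with the SK4 plasmid, with replicate 3 lowest in each group. An antisense noncoding gene, TNFRSF10A-AS1, was at 0.17 to 0.68 FPKM. The decoy receptor gene TNFRSF10D was at 5.90, 5.63 and 5.56 FPKM with the control plasmid and 5.32, 5.36 and 6.23 FPKM with the SK4 plasmid. The other decoy, TNFRSF10C, was at 0.61, 0.45 and 0.50 FPKM with the control plasmid and 0.89, 0.76 and 0.59 FPKM with the SK4 plasmid. Death receptors together exceeded decoys 6.31 ± 0.298 times in the control and 6.16 ± 0.608 times in the SK4 libraries (SD, n = 3 each), and the groups overlapped. All 4 receptor genes stand in one cluster on chromosome 8, with 18150 to 33410 bp between one member and the next, and have similar sequences, so reads may be shared between them.

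TNFSF10, the gene for TRAIL itself, varied most among the 12 members with a mean of 5 FPKM or more. It was at 16.24, 16.67 and 13.06 FPKM in control replicates 1 to 3 and at 18.42, 12.98 and 17.27 FPKM in SK4 replicates 1 to 3. The low libraries were control replicate 3 and SK4 replicate 2, nearly equal to each other, and each group had one of them. The within-group coefficient of variation was 15.6%, which is 6.94 times what counting alone gives. With all 6 libraries the fold was 1.05 (95% interval 0.834 to 1.33; limma unadjusted p = 0.626, adjusted p = 0.99997). Without those 2 libraries the log2 fold change was 0.11 (limma unadjusted p = 0.0474, adjusted p = 0.971). They held the lowest TNFSF10 value of each group, so leaving them out narrows its spread by construction. That p therefore lends no separate support to a difference. Without control replicate 3 alone the log2 fold change was -0.035, and without SK4 replicate 2 alone it was 0.22.

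**Figure D2:**
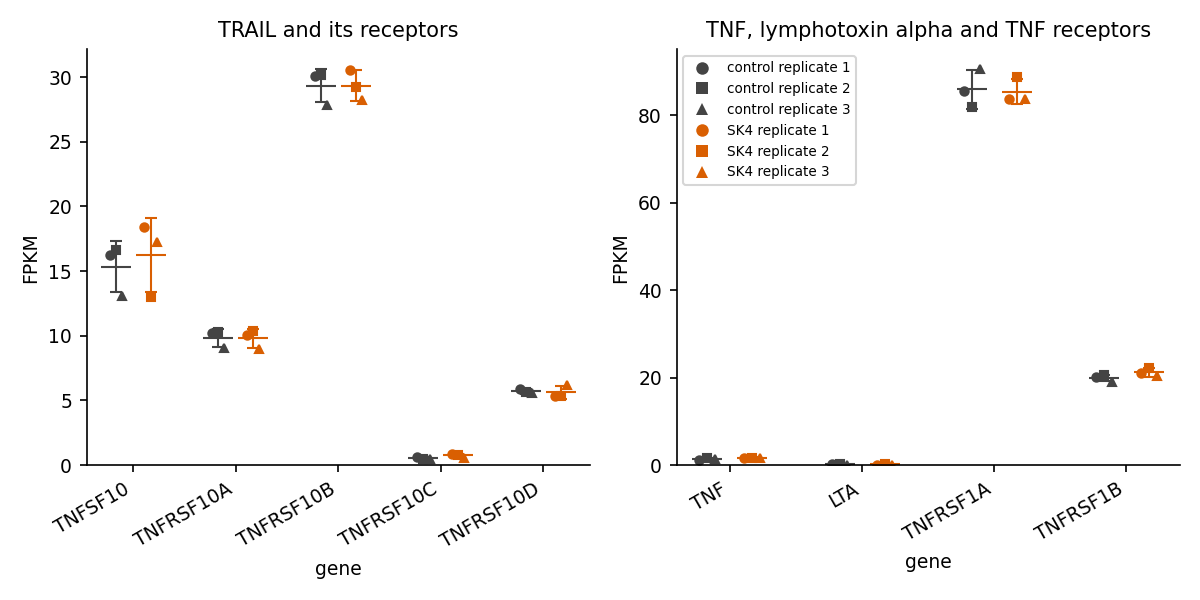
FPKM of the TRAIL genes (left) and of the genes for TNF, lymphotoxin alpha and the TNF receptors (right) in each library; marks are libraries, bars the mean ± SD of each group (n = 3). TNFSF10 has 1 low library in each group, at 13.06 FPKM with the control plasmid and 12.98 FPKM in the SK4 group, and the receptors show overlapping groups.

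TNFSF9, the ligand of 4-1BB, was the most abundant ligand. It was at 23.73, 25.09 and 23.35 FPKM with the control plasmid and 24.55, 25.77 and 24.01 FPKM with the SK4 plasmid. The spread within groups was 3.72%, near the 2.61% that counting alone gives, and the groups overlapped (fold 1.03, 95% interval 0.954 to 1.11). TNFSF11, the gene for RANKL, was at 1.68 to 2.06 FPKM over all libraries, with the receptor gene TNFRSF11A below it at 0.03 to 0.10 FPKM.

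TNF, the inflammatory cytokine that names the family, had the largest fold change and the smallest unadjusted p of the tested members, and it was not called. It was at 1.16, 1.52 and 1.44 FPKM with the control plasmid and 1.52, 1.72 and 1.71 FPKM with the SK4 plasmid. The lowest SK4 value equalled the highest control value. The fold was 1.15 (95% interval 0.976 to 1.36; log2 fold change 0.20, SE 0.10; limma unadjusted p = 0.0844, adjusted p = 0.99997), and its rank by p was 341 among the tested genes. About 91.4 fragments a library lay behind these values, which gives a counting error of 10.5%, close to the observed within-group spread of 10.3%. Leaving out single libraries gave log2 fold changes from 0.12 to 0.26, and with library weights the unadjusted p was 0.0196 (limma adjusted p = 0.562). Library weights put 905 of the 11139 tested genes at an unadjusted p below 0.05, against 184 without weights (limma).

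TNF lies between LTA and LTB on chromosome 6 (TNF at 31575567 to 31578336, with gaps of 1242 and 2188 bp to them). LTA, lymphotoxin alpha, was at 0.21, 0.16 and 0.10 FPKM with the control plasmid and 0.13, 0.25 and 0.10 FPKM with the SK4 plasmid. LTB, lymphotoxin beta, was at 0.07, 0.02 and 0.11 FPKM with the control plasmid and listed at 0, 0.04 and 0.05 FPKM with the SK4 plasmid. Both rest on about 10 fragments a library or fewer (means of 9.97 and 2.54), so no difference was detectable at this depth. FASLG, Fas ligand, was at 0.05, 0.10 and 0.06 FPKM with the control plasmid and 0, 0.05 and 0.06 FPKM with the SK4 plasmid. TNFSF14, the gene for LIGHT, was at 0.11, 0.11 and 0.21 FPKM with the control plasmid and 0.13, 0.16 and 0.13 FPKM with the SK4 plasmid. The receptors for these ligands, LTBR, FAS and TNFRSF14, were thus present at higher levels than the ligands.

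TNFSF12, the gene for TWEAK, was at 1.11, 1.06 and 1.04 FPKM with the control plasmid and 1.02, 1.21 and 1.32 FPKM with the SK4 plasmid, against 109.54 to 119.96 FPKM for its receptor gene TNFRSF12A. The readthrough gene TNFSF12-TNFSF13 was at 1.96 to 2.47 FPKM. It shares sequence with TNFSF12 and with TNFSF13 (0.19 to 0.37 FPKM), so the split of fragments among the 3 genes is uncertain. BAFF (TNFSF13B) and the OX40 ligand (TNFSF4) had means of 0.642 and 0.693 FPKM, and TNFSF8 and TNFSF18 were at 0.02 FPKM at most.

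Between the plasmids, none of the 19 tested members was called higher or lower (limma, adjusted p = 0.99997 for each), and none had an unadjusted p below 0.05. Over all tested genes 1 was called, KCNN4, which is 0.00898%, and 1.65% had an unadjusted p below 0.05. No tested member had all SK4 values above or below all control values, against 5.34% of all tested genes (3.53% with SK4 higher and 1.81% with SK4 lower). The 95% interval of the fold lay inside 1.5-fold in either direction for all 19 members (96.8% of all tested genes), and inside 1.2-fold for 14 of 19 (57.6%). The median log2 fold change of the 19 was 0.030, against 0.011 for all tested genes. After centring each library on its median it was 0.020, against -8.3e-05 for all tested genes, and without control replicate 3 it was -0.0055, against -0.021 for all tested genes.

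**Figure D3:**
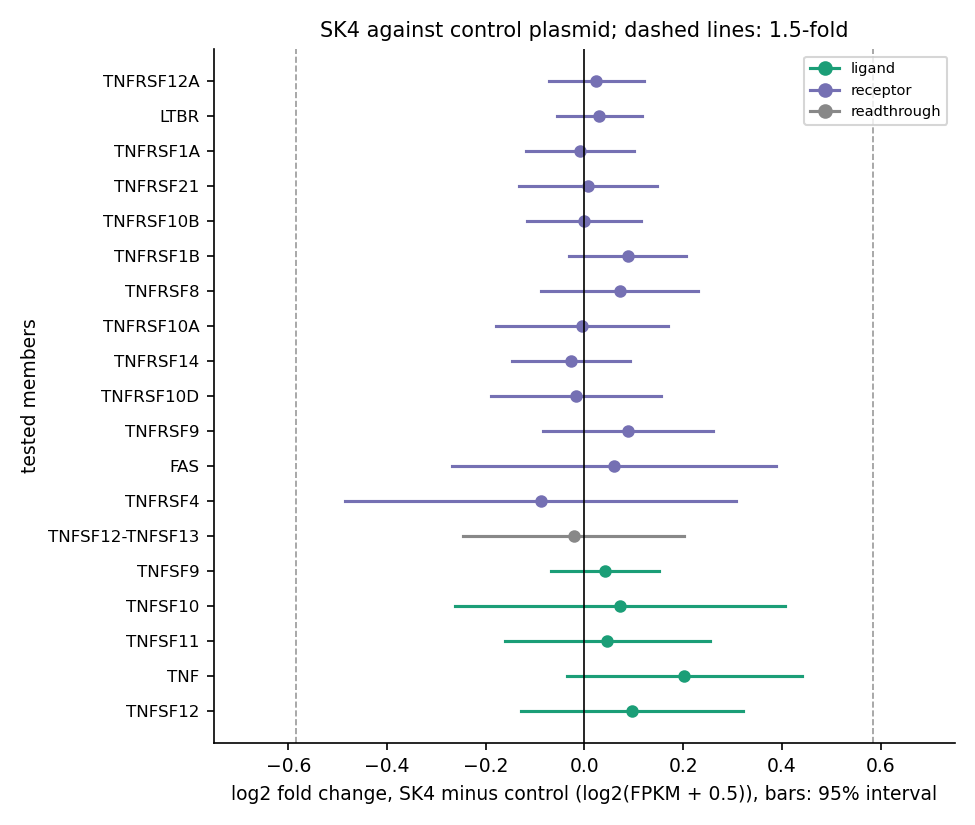
Log2 fold change of the 19 tested members, SK4 minus control, on log2(FPKM + 0.5), with bars for the 95% interval of limma; dashed lines mark 1.5-fold in either direction. All intervals include 0 and lie inside the dashed lines, the widest being that of TNFRSF4.

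By role, the median log2 fold change was 0.0066 over the tested receptors, 7 positive and 6 negative. The 5 death domain receptors that were tested ranged from -0.0088 (TNFRSF1A) to 0.059 (FAS). The 5 tested ligands were all positive, from 0.042 for TNFSF9 to 0.20 for TNF. Positive fold changes were found for 12 of the 19 tested members and 57.9% of all tested genes. But without control replicate 3 TNFSF10 and TNFSF11 were at -0.035 and -0.0070, and without SK4 replicate 1 TNFSF10 was at -0.024. Without control replicate 3 and SK4 replicate 2 together TNFSF9 and TNFSF11 were at -0.0071 and -0.0054. The 3 negative members with the smallest p were TNFRSF4, TNFRSF14 and TNFRSF10D, with log2 fold changes of -0.089, -0.027 and -0.017.

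With the filter lowered to 0.1 FPKM, 30 members were tested and again none was called (limma; 0.00553% of 18067 genes called). One of them, TNFRSF10C, then had an unadjusted p below 0.05 (log2 fold change 0.29; limma unadjusted p = 0.0431, adjusted p = 1), as had 2.72% of all genes at that filter, and with no filter its unadjusted p was 0.0529. TNFRSF11B, which encodes the soluble decoy osteoprotegerin that binds RANKL, was the only one of all 37 members whose groups did not overlap. It was at 0.80, 0.73 and 0.71 FPKM with the control plasmid and 0.83, 0.90 and 1.05 FPKM with the SK4 plasmid (log2 fold change 0.19, 95% interval -0.022 to 0.41, limma adjusted p = 1). At that filter 3.68% of all genes had SK4 values entirely above the control values. TNFRSF10C and TNFRSF11B were singled out after their values were seen.

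Of the 19 tested members, 11 had a within-group coefficient of variation over 2 times that of counting alone, and 2, TNF and TNFSF12, had one below it. Of the 11 members with a mean of at least 1000 fragments over the libraries, 9 were over 2 times, and TNFRSF14 and TNFSF9 were the exceptions. Control replicate 3 and SK4 replicate 2 deviated from their groups in a related way over all tested genes (Pearson r = 0.528 across 11139 genes, given as a description, since the genes share both libraries). TNFSF10, FAS and TNFRSF21 were lowest in both of these libraries within their groups, which held for 41.7% of all tested genes. TNFRSF12A, TNFRSF1A and TNFRSF14 were highest in both, which held for 13.1% of all tested genes. The deviations were -0.21 and -0.30 for TNFSF10 and -0.13 and -0.29 for FAS, on the log2 scale, and 0.030 and 0.074 for TNFRSF12A. The median deviation over all tested genes was -0.065 in control replicate 3 and -0.024 in SK4 replicate 2.

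**Figure D4:**
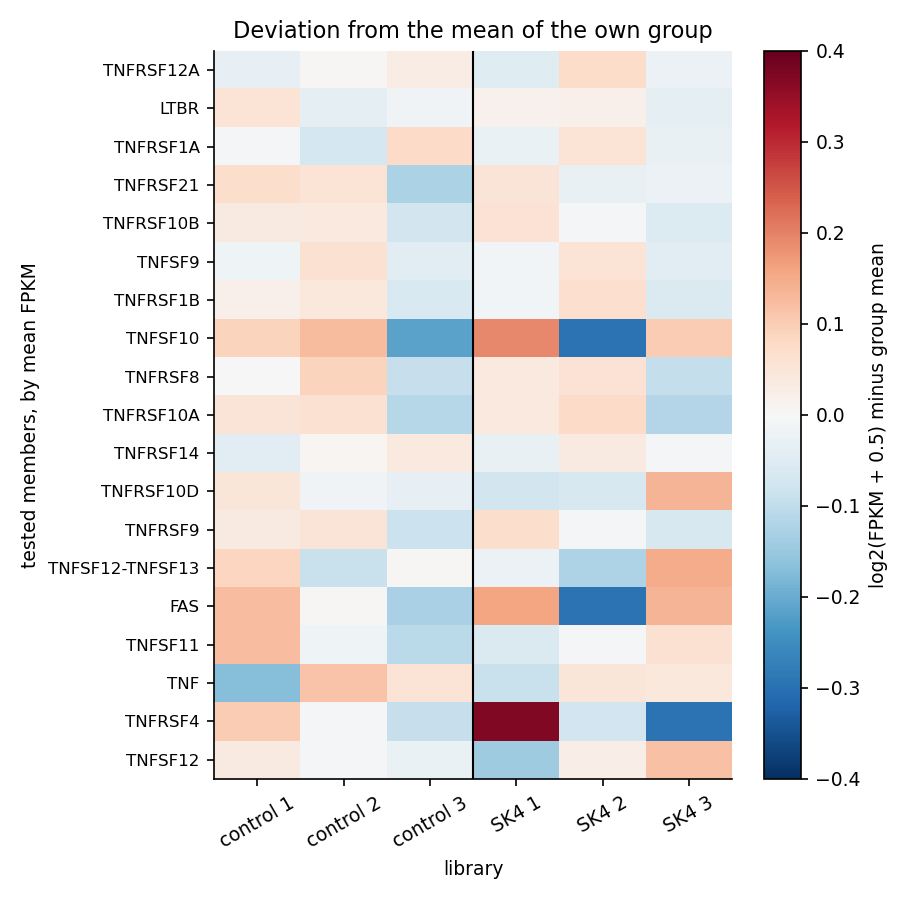
Deviation of each library from the mean of its own group on log2(FPKM + 0.5), for the 19 tested members in order of mean level; red is above and blue below the group mean. TNFSF10 and FAS are low in control replicate 3 and SK4 replicate 2, and TNFRSF4 is high in SK4 replicate 1 and low in SK4 replicate 3.

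Besides genes that carry the receptors' signals, 6 lists held sheddase genes and superfamily genes with other symbols, and none was called. Over these lists 56 of 67 genes were tested. The others did not reach the 1 FPKM filter, among them RIPK3 (0.01 to 0.10 FPKM) and REL (0.14 to 0.24 FPKM). Of the tested genes 41 had positive and 15 negative fold changes. Their median log2 fold change was 0.041 (0.0071 without control replicate 3, against -0.021 for all tested genes). By comparison, 57.9% of all tested genes were positive. Of the 56 genes, 2 had an unadjusted p below 0.05 (1.65% of all tested genes), 4 had SK4 values entirely above the control range (3.53%) and 1 entirely below it (1.81%). BID, which carries the caspase-8 signal to the mitochondria, was at 12.74, 13.28 and 13.37 FPKM with the control plasmid and 14.13, 14.87 and 14.27 FPKM with the SK4 plasmid, with no overlap (log2 fold change 0.13, unadjusted p = 0.0232, limma adjusted p = 0.99997). TNIP1, a partner of the ubiquitin-editing enzyme A20, was at 55.46, 54.25 and 54.92 FPKM with the control plasmid and 58.32, 60.21 and 57.13 FPKM with the SK4 plasmid, also with no overlap (log2 fold change 0.092, unadjusted p = 0.0294, limma adjusted p = 0.99997). With median centring the unadjusted p was 0.110 for BID and 0.213 for TNIP1, and with quantile normalization 0.0883 and 0.0383 (limma). With library weights it was 0.0060 for BID (limma adjusted p = 0.462), a setting that put 905 of 11139 tested genes below 0.05. Leaving out single libraries gave log2 fold changes from 0.11 to 0.14 for BID and from 0.072 to 0.11 for TNIP1.

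Of the receptor adaptors 10 of 11 were tested, with 7 positive. FADD, the adaptor of the death receptors, was the highest at 36.1 ± 1.68 FPKM with the control plasmid and 36.4 ± 1.19 FPKM with the SK4 plasmid. TRAF1 was at 5.60 ± 0.491 and 6.08 ± 0.261 FPKM. TRAF2, which binds TNFRSF1B, was at 10.3 ± 0.0306 and 9.81 ± 0.192 FPKM, the 1 gene of the 6 lists with all SK4 values below all control values. In the ubiquitin and kinase list 22 of 23 genes were tested, 15 of them positive. SPATA2, which recruits the deubiquitinase CYLD, was at 3.83 ± 0.118 and 4.20 ± 0.269 FPKM.

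The 4 tested NF-kB subunit genes were all positive, from 0.023 to 0.093 on the log2 scale, and NFKB2 was at -0.0022 with library weights. RELB, the partner of p52 downstream of LTBR, was at 19.35, 19.54 and 19.82 FPKM with the control plasmid and 21.15, 21.64 and 19.96 FPKM with the SK4 plasmid (unadjusted p = 0.0737, limma adjusted p = 0.99997). NFKB2, which encodes the precursor of p52, was at 57.1 ± 1.48 and 58.0 ± 0.513 FPKM, and RELA at 15.2 ± 0.432 and 15.7 ± 0.537 FPKM. Of the death receptor effectors 10 of 12 were tested, 8 of them positive. CASP6, an executioner caspase gene, was at 5.49 ± 0.376 and 5.89 ± 0.257 FPKM, and DAXX at 29.6 ± 1.01 and 30.6 ± 0.531 FPKM. Of the genes for ectodomain shedding all 5 were tested, 3 of them positive. RHBDF2, a cofactor of the TNF sheddase ADAM17, was at 9.18 ± 0.283 and 9.45 ± 0.0854 FPKM, and MMP7 at 1.27 ± 0.312 and 1.40 ± 0.422 FPKM (SD, n = 3 for each group here and above).

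Superfamily genes whose symbols do not begin with TNF were described beside the members. CD70, the ligand of CD27, was at 30.67, 30.15 and 31.98 FPKM with the control plasmid and 33.25, 31.85 and 32.28 FPKM with the SK4 plasmid, above every ligand among the members. Its receptor gene CD27 was at 0.48 to 0.57 FPKM in all libraries. RELL2 was at 9.86 ± 0.523 and 10.6 ± 0.366 FPKM, and the receptor gene CD40 at 8.96 ± 0.281 and 9.20 ± 0.582 FPKM. Of this list 5 of 11 genes were tested, 4 of them positive, and none was called.

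**Figure D5:**
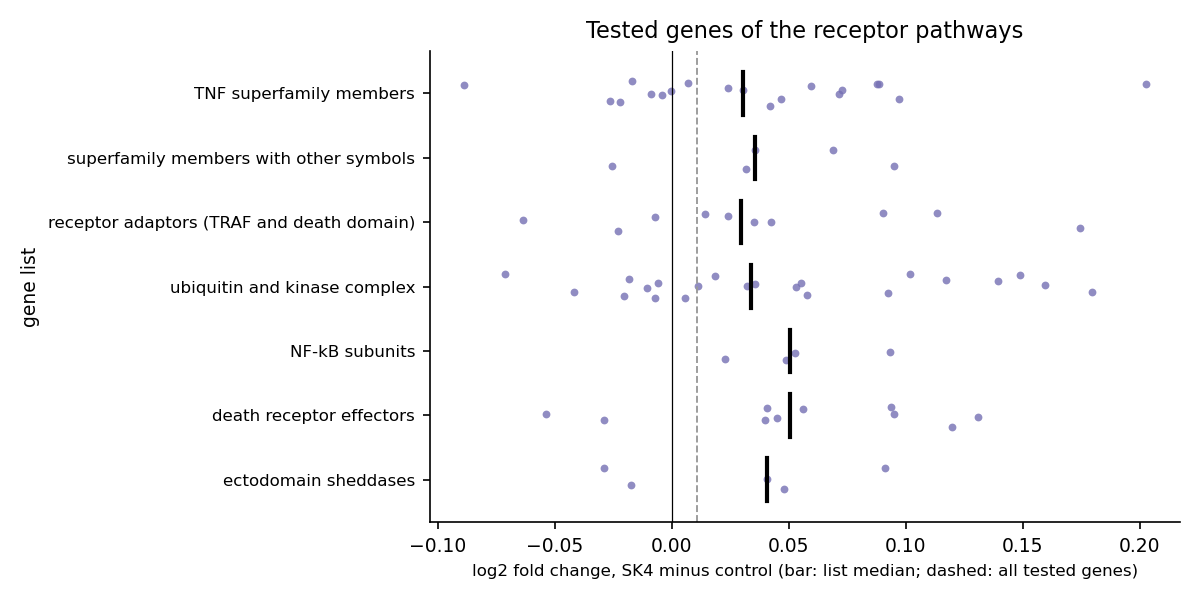
Log2 fold changes, SK4 minus control, of the tested genes of 7 groups (points: genes, black bars: group medians, dashed line: the median of all tested genes, 0.011). The group medians lie between 0.029 and 0.051, and no gene shown was called.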

How the data were processed

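Polyadenylated RNA of 6 BHT101 samples was sequenced as strand-marked libraries with 150 nt paired reads, per the labels' protocols. Per the submitters' processing notes, HISAT2 and GRCh38 were used; for the counting tool and annotation release, nothing is given in the sources used here. Expression values were deposited by the authors as FPKM in 1 table, with 2 decimals, and no gene was at 0 in every library. Depth was estimated from 546 short single-exon genes, whose low FPKM values are whole multiples of 1 fragment (99.4% to 99.5% of the low values, within 0.1), and covers counting error only. Fragments behind a member used the merged exon length of GENCODE 29, which may differ from the authors' annotation.

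Genes that reached 1 FPKM in 3 or more libraries were tested on log2(FPKM + 0.5) with limma 3.58.1 in R 4.3.3 (trended, robust prior, group as the only term), with Benjamini-Hochberg adjustment over all 11139 tested genes; this scale understates changes of low genes. A gene was called at an adjusted p below 0.05. Named were members with a mean of 5 FPKM or more, the 3 members with the smallest p in each direction, TNF, TRAIL, TWEAK, Fas ligand, lymphotoxins, TNFSF9, TNFSF14, TNFSF15 and the TRAIL receptors, and from each pathway list the 2 genes with the smallest p and the one with the highest mean. Other members are given by level. CD40, CD27, TNFRSF10C and TNFRSF11B statements go beyond this rule or were chosen after values were seen. The members and lists were chosen with earlier results of these data known. Of 109 list genes 108 were in the table. The fit was tested on simulated data. Alternatives covered the pseudocount, filter, scaling, weights, prior, replicate block, threshold and left-out libraries.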

Additional observations from a re-analysis of the deposited data

How the results depend on the processing

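KCNN4 was called, and no member and no pathway gene was called, under any of the 17 alternative settings run (limma). The number of called genes over the whole table was 1 in every setting except without control replicate 3 and SK4 replicate 2 together, where it was 4, none of them a member. At an unadjusted p below 0.05 there was 1 member with the filter at 0.1 FPKM, 1 with library weights and 1 without those 2 libraries, and 0 in the other settings. The last was TNFSF10, whose lowest value in each group lay in those 2 libraries. Over all tested genes 492 of 18067 were at that level with that filter. With library weights 905 of 11139 were, against 184 with the settings of the report. The matching number without those 2 libraries is not given here. Of the pathway genes 2 were at that level with the settings of the report, and 0 to 4 under the alternatives. Library weights gave 4, beside 905 of all 11139 tested genes. The number was 0 after median centring, with the replicate block, without control replicate 1 and without SK4 replicate 2. After median centring 212 of all 11139 tested genes were at that level. The matching numbers for the replicate block and for single left-out libraries are not given here. Same-numbered samples had deviations from their group means with Pearson r = 0.306, -0.41 and -0.154 for numbers 1 to 3. Deviations sum to 0 within each group, which ties these r values together. They therefore cannot decide whether the numbers pair the samples. With the replicate block 1 gene was called, KCNN4 (limma adjusted p = 0.000148), and 0 members. In that setting the unadjusted p was 0.0501 for BID and 0.0777 for TNIP1 (limma). The fold changes of some genes changed sign in some settings, and the cause was not tested. Not all of these were near 0: with the settings of the report TNFRSF4 was at -0.089 and MMP7 at 0.091 on the log2 scale. The log2 fold change was -0.0043 for TNFRSF21 with median centring; 0.0017 for TNFRSF1A and -0.0040 for TNFRSF21 with quantile normalization; -0.0017 for LTBR, -0.055 for TNFRSF21, -0.014 for TNFRSF8, 0.041 for TNFRSF10D, 0.055 for TNFSF12-TNFSF13 and -0.0022 for NFKB2 with library weights. Without control replicate 3 and SK4 replicate 2 together it was 0.0015 for TNFRSF1A, -0.042 for TNFRSF21, -0.0071 for TNFSF9, -0.0023 for TNFRSF8, 0.042 for TNFSF12-TNFSF13 and -0.0054 for TNFSF11. Leaving out 1 library at a time, the ranges that crossed 0 were -0.022 to 0.043 for FADD, -0.020 to 0.21 for FAS, -0.050 to 0.28 for MMP7, -0.061 to 0.054 for TNFRSF10A, -0.037 to 0.027 for TNFRSF10B, -0.085 to 0.020 for TNFRSF10D, -0.013 to 0.049 for TNFRSF12A, -0.044 to 0.029 for TNFRSF1A, -0.056 to 0.042 for TNFRSF21, -0.27 to 0.058 for TNFRSF4, -0.035 to 0.22 for TNFSF10, -0.0070 to 0.11 for TNFSF11 and -0.096 to 0.040 for TNFSF12-TNFSF13. The 18 members not tested were left out by the 1 FPKM filter and rest on at most 131 fragments a library.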
